A study of Mus musculus with 16 samples.

Results

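The 31 genes described here encode enzymes that supply nucleotides, serine and one-carbon units, the building blocks from which a dividing cell copies its DNA and makes RNA. They were taken as a named module by gene symbol, with earlier results of these data known. They were 31 of the 55536 annotated genes counted in activated mouse CD8+ T cells. All 31 passed the filter on low counts, as did 16650 genes in all, and each held between 39190 and 1867191 counts summed over the 16 libraries.

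Serine is made from a glycolytic intermediate by Phgdh, Psat1 and Psph, and the Shmt and Mthfd enzymes then move its carbon onto folate in the mitochondria and the cytosol. The folate-bound carbon is built into the purine ring and into thymidylate, while Cad, Dhodh and Umps assemble the pyrimidine ring. Ribonucleotide reductase, composed of Rrm1 and Rrm2, turns ribonucleotides into the deoxynucleotides of DNA. T cells are known to raise these enzymes when antigen drives them to divide.

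The study asked what the RNA-binding protein TDP-43, encoded by Tardbp, does in costimulated CD8+ T cells. In the Control gRNA group (n = 8 libraries), CD8+ T cells of OT-1 Tg C57BL/6J mice, whose transgenic T cell receptor recognises a peptide of ovalbumin (SIINFEKL), had Cas9 and a scrambled guide RNA brought in by electroporation. In the Tardbp gRNA group (n = 8), the same kind of cells received Cas9 and a guide against Tardbp. Both groups were transferred into C57BL/6J recipients, which were given SIINFEKL together with agonist antibodies against OX40 and 41BB, and CD8+ T cells were sorted from spleen and lymph nodes after 4 days by the labels, or somewhat less by the study's methods. The study's text also places a stimulation between the purification of the cells and their sequencing. The edited cells were a mixed population and not a clone, and the labels give no age for each library.

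Total counts ran from 73649630 to 93893357 per Control gRNA library and from 56016533 to 94801105 per Tardbp gRNA library. Tardbp itself, the targeted gene, ranged over 172 to 207 CPM (median 198) in the Control gRNA libraries and 110.4 to 147 CPM (median 136) in the Tardbp gRNA libraries, with no overlap, and fell by 0.51 on the log2 scale (standard error 0.056, adjusted p = 8.07e-07). Values are CPM, counts scaled to a common library size with edgeR's TMM factors, and fold changes were tested across all genes by edgeR's quasi-likelihood test with Benjamini-Hochberg adjustment. The summed level of 8 CD8 T cell markers ran from 4976 to 6022 CPM in Control gRNA libraries and 6900.5 to 8679 CPM after the Tardbp guide, and all 8 markers were higher. Among the markers of other cells, Cd4 of CD4 T cells and Ms4a1 of B cells reached at most 0.601 and 2.22 CPM in any library. Zbtb7b of the CD4 T cell list reached 12.4 CPM, and Cd79b and Ighm of the B cell list 12.1 and 698 CPM. None of 3 CD4 T cell markers was called (sums of 3.45 to 12.7 and 4.76 to 9.17 CPM), and of 5 B cell markers only Ighm was, which was higher, with sums over the 5 of 374 to 460.5 and 541 to 708 CPM. Called higher, with summed levels in parentheses, were 3 of 5 myeloid markers tested (26.1 to 52.0 and 47.2 to 112 CPM), 4 of 4 red cell precursor markers (0.442 to 17.4 and 9.02 to 181 CPM) and 0 of 2 natural killer cell markers (0.457 to 2.999 and 0.972 to 4.03 CPM). Beside these marker counts, 23.5% of all genes tested were called higher and 46.7% in either direction. The RNA concentration recorded before library preparation, without a unit, ran from 34.9 to 197.1 for Control gRNA but from 10.1 to 24.0 for Tardbp gRNA, so that RNA amount and group cannot be told apart. Whether the cell type markers or the RNA amount had a part in the results below was not tested.

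The module was lower in cells that had received the Tardbp guide. Of its 31 genes, 28 were called lower at an adjusted p under 0.05 and 0 higher, where 23.3% of all genes tested were called lower, 23.5% higher and 46.7% in either direction. In 25 of the 31 genes, every Tardbp gRNA library lay below every Control gRNA library, where 10.3% of all genes tested did so, 6.61% did so in the opposite direction and 16.9% in either. The median log2 fold change of the module was -0.51 with a range from -1.37 to 0.10, beside a median of 0.046 over all genes tested. The median log2 CPM over the 31 genes lay between 7.82 and 8.10 in Control gRNA, and between 7.30 and 7.70 after the Tardbp guide. With upper-quartile scaling in place of TMM, 25 genes were called lower and 1, Ctps2, higher, and the share of lower calls among all calls went from 49.8% to 38.8%. When the fit also held the log2 of the RNA concentration, 19 genes were called lower and 0 higher, and the calls of Shmt2, Mthfd2, Pfas, Adsl, Impdh1, Impdh2, Dut, Hprt and Aprt were lost. That fit called 1687 of all 16650 genes lower and 1010 higher, where the main fit called 3877 lower and 3906 higher. On the libraries numbered 1 to 3 alone, the calls of Mthfd2, Adsl, Impdh2, Tyms, Dut, Tk1, Hprt and Aprt were lost. In that fit 1140 of all 16871 genes tested were called lower and 556 higher. Calls were thus fewer over all genes as well in both fits. In bulk RNA, fewer cells expressing a gene and less RNA per cell cannot be told apart.

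**Figure D1:**
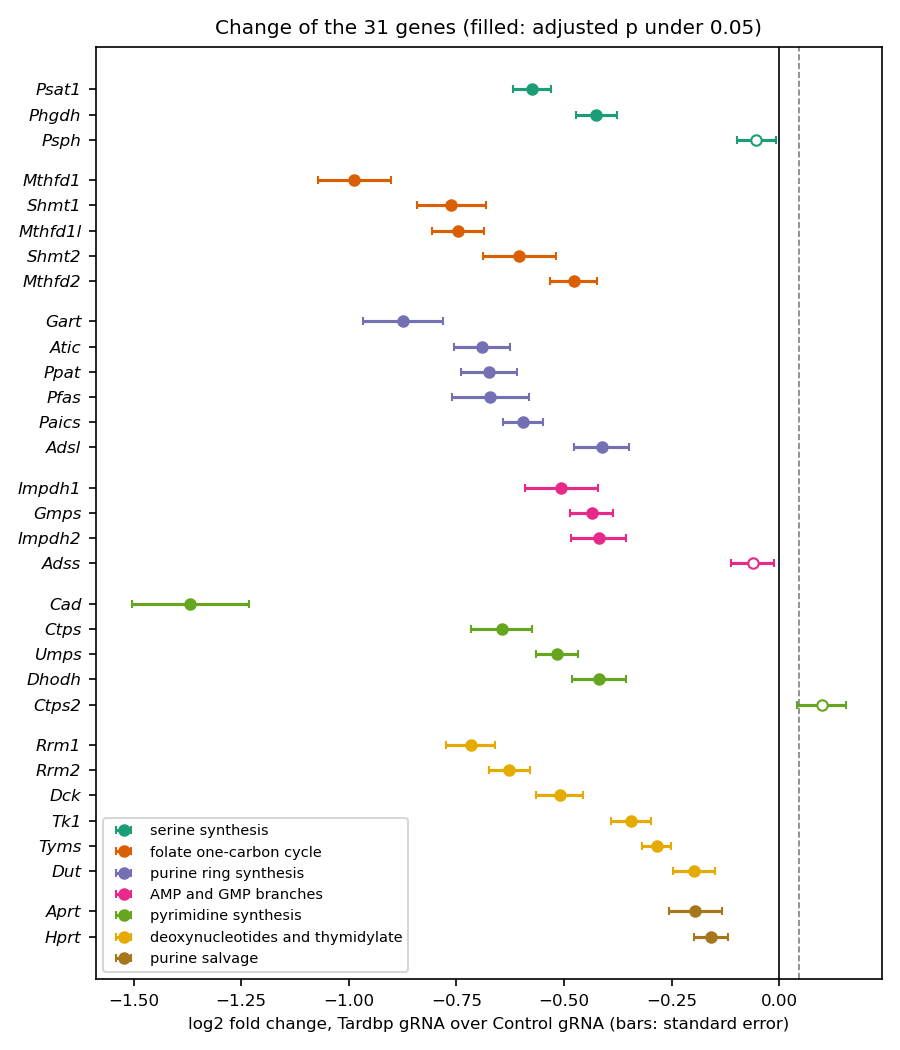
The horizontal axis gives the log2 fold change of each gene in Tardbp gRNA over Control gRNA (n = 8 each) with its standard error, in colors by role, and the dashed line marks the median of all genes tested, 0.046. The 28 filled points passed an adjusted p of 0.05 and all lie left of 0, with Cad at -1.37, while Psph, Adss and Ctps2 are open.

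In serine synthesis, 2 of the 3 genes were called lower, with a median of -0.43 on the log2 scale over the 3. Psat1, the aminotransferase of the pathway (Ensembl gene ENSMUSG00000024640, chr19:15904678-15947337, minus strand of mm10), ranged over 299 to 365 CPM (median 329) in the Control gRNA libraries and 203 to 243 CPM (median 225) in the Tardbp gRNA libraries. All Tardbp gRNA libraries were below all Control gRNA libraries, and Psat1 fell by 0.57 on the log2 scale (standard error 0.044, adjusted p = 3.71e-08). Phgdh, the dehydrogenase that opens the pathway, was at 527 to 667 CPM (median 559) in the Control gRNA libraries and 406 to 461 CPM (median 424) in the Tardbp gRNA libraries. The ranges of Phgdh did not overlap either, and it fell by 0.43 on the log2 scale (standard error 0.048, adjusted p = 1.08e-06). Psph, the phosphatase that releases serine, was at 66.04 to 79.9 CPM (median 74.6) in the Control gRNA libraries and 68.6 to 76.9 CPM (median 71.1) in the Tardbp gRNA libraries, ranges that overlapped, with a log2 fold change of -0.053 (standard error 0.045, adjusted p = 0.349).

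The folate cycle was the role with the largest median fall, -0.75 on the log2 scale over 5 genes, all 5 called lower without overlap. Mthfd1, the cytosolic enzyme that interconverts the forms of folate-bound carbon (chr12:76255298-76319803, plus strand), ranged over 323 to 416 CPM (median 364) in the Control gRNA libraries and 157 to 230.3 CPM (median 185) in the Tardbp gRNA libraries. It stood at 50.4% of its control level, having fallen by 0.99 on the log2 scale (standard error 0.085, adjusted p = 9.13e-08). Shmt1, which takes the carbon from serine in the cytosol, was at 128 to 198 CPM (median 146) in the Control gRNA libraries and 81.8 to 105 CPM (median 91.0) in the Tardbp gRNA libraries, and fell by 0.76 on the log2 scale (standard error 0.080, adjusted p = 5.83e-07). Its mitochondrial counterpart Shmt2 was at 292 to 403 CPM (median 344) in the Control gRNA libraries and 187 to 275 CPM (median 211) in the Tardbp gRNA libraries, and fell by 0.60 on the log2 scale (standard error 0.086, adjusted p = 1.43e-05). Mthfd1l, which releases formate from the mitochondria, was at 137 to 169 CPM (median 153) in the Control gRNA libraries and 78.7 to 103 CPM (median 91.5) in the Tardbp gRNA libraries. That gene fell by 0.75 on the log2 scale (standard error 0.060, adjusted p = 5.56e-08). Mthfd2, the mitochondrial dehydrogenase and cyclohydrolase, was at 203 to 247 CPM (median 219) in the Control gRNA libraries and 143 to 190.3 CPM (median 156) in the Tardbp gRNA libraries, and fell by 0.48 on the log2 scale (standard error 0.055, adjusted p = 1.45e-06), the least of the 5. The calls of Shmt2 and Mthfd2 were lost when the fit also held the log2 RNA concentration. Their log2 fold changes there were -0.49 and -0.32 (adjusted p = 0.0749 and 0.0583). On the libraries numbered 1 to 3, Mthfd2 was not called at a log2 fold change of -0.46 (adjusted p = 0.0545).

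All 6 enzymes of purine ring synthesis were called lower without overlap between the groups, with a median of -0.67 on the log2 scale. Gart, which carries out several of the middle steps (chr16:91621186-91646952, minus strand), ranged over 273 to 401 CPM (median 359) in the Control gRNA libraries and 152 to 242 CPM (median 186) in the Tardbp gRNA libraries. It fell by 0.87 on the log2 scale (standard error 0.093, adjusted p = 6.32e-07), to 54.6% of its control level. Ppat, the committed step, was at 150.3 to 195 CPM (median 173) in the Control gRNA libraries and 89.2 to 122 CPM (median 111) in the Tardbp gRNA libraries. Ppat fell by 0.67 on the log2 scale (standard error 0.065, adjusted p = 2.3e-07). Paics, a middle enzyme of the route, was at 523 to 651 CPM (median 590.4) in the Control gRNA libraries and 367 to 439 CPM (median 385) in the Tardbp gRNA libraries, and fell by 0.60 on the log2 scale (standard error 0.046, adjusted p = 3.68e-08). Pfas, a low-abundance amidotransferase of the pathway, was at 31.4 to 47.9 CPM (median 36.2) in the Control gRNA libraries and 19.6 to 26.6 CPM (median 23.5) in the Tardbp gRNA libraries. It fell by 0.67 on the log2 scale (standard error 0.089, adjusted p = 7.19e-06). Atic, which closes the ring to give inosine monophosphate (IMP), was at 88.9 to 109 CPM (median 94.7) in the Control gRNA libraries and 52.4 to 71.4 CPM (median 58.6) in the Tardbp gRNA libraries. Atic fell by 0.69 on the log2 scale (standard error 0.066, adjusted p = 2.08e-07). Adsl, which also acts in the branch to adenylate, was at 249 to 335 CPM (median 262) in the Control gRNA libraries and 184 to 233 CPM (median 204) in the Tardbp gRNA libraries, and fell by 0.41 on the log2 scale (standard error 0.063, adjusted p = 3.25e-05), the least of the 6. With the RNA concentration in the fit, Pfas and Adsl were no longer called. Their log2 fold changes there were -0.47 and -0.24 (adjusted p = 0.0914 and 0.213). Nor was Adsl called on the libraries numbered 1 to 3, at a log2 fold change of -0.40 (adjusted p = 0.0794).

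Ppat and Paics lie on opposite strands of chromosome 5, with RefSeq starts 276 bases apart and overlapping first parts. Reads from the overlap cannot be assigned by strand, since the library kit does not mark it, and 4.46% and 7.26% of the 100-base windows of the main Ppat and Paics transcripts were also present in another gene.

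Of the 4 genes that lead from IMP to AMP and GMP, 3 were called lower and the median was -0.43 on the log2 scale. On the way to GMP, Impdh1 (chr6:29200434-29216364, minus strand), the dehydrogenase of IMP, was at 97.5 to 137 CPM (median 106) in the Control gRNA libraries and 67.9 to 96.1 CPM (median 72.6) in the Tardbp gRNA libraries. It fell by 0.51 on the log2 scale (standard error 0.085, adjusted p = 8.44e-05), the largest fall among the 4 branch genes, with the highest Tardbp gRNA library just below the lowest Control gRNA library. Impdh2, its paralog, was at 224 to 302 CPM (median 239) in the Control gRNA libraries and 169 to 215 CPM (median 189) in the Tardbp gRNA libraries. Impdh2 fell by 0.42 on the log2 scale (standard error 0.064, adjusted p = 3.22e-05), but 64.6% of the 100-base windows of its main transcript also occur in another gene, chiefly the pseudogene Impdh2-ps, so its value is uncertain. Gmps, the amidotransferase that completes GMP, was at 259.9 to 309.8 CPM (median 287) in the Control gRNA libraries and 196 to 238 CPM (median 209.9) in the Tardbp gRNA libraries. Gmps fell by 0.44 on the log2 scale (standard error 0.050, adjusted p = 1.33e-06). On the way to AMP, Adss was at 158 to 197 CPM (median 185) in the Control gRNA libraries and 154 to 190.4 CPM (median 177) in the Tardbp gRNA libraries, with overlapping ranges and a log2 fold change of -0.062 (standard error 0.050, adjusted p = 0.331). The fit with the RNA concentration left Gmps as the single called gene of the 4. Impdh1 and Impdh2 had log2 fold changes of -0.39 and -0.27 there (adjusted p = 0.152 and 0.182). On the libraries numbered 1 to 3, Impdh2 was at -0.36 (adjusted p = 0.0828).

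Pyrimidine synthesis held both the largest fall of the module and its single positive fold change, with 4 of 5 genes called lower and a median of -0.52 on the log2 scale. Cad, the multifunctional enzyme of the opening steps (chr5:31054780-31078479, plus strand), ranged over 166 to 274 CPM (median 219) in the Control gRNA libraries and 55.8 to 115 CPM (median 86.4) in the Tardbp gRNA libraries. Every Tardbp gRNA library was below every Control gRNA library, Cad fell by 1.37 on the log2 scale (standard error 0.14, adjusted p = 3.31e-07), and it stood at 38.8% of its control level. Dhodh, the mitochondrial dehydrogenase of the next step, was at 53.1 to 66.9 CPM (median 58.0) in the Control gRNA libraries and 38.3 to 50.3 CPM (median 43.5) in the Tardbp gRNA libraries. It fell by 0.42 on the log2 scale (standard error 0.063, adjusted p = 2.6e-05). Umps, which forms uridine monophosphate, was at 239 to 304 CPM (median 268) in the Control gRNA libraries and 179 to 207 CPM (median 186) in the Tardbp gRNA libraries. Umps fell by 0.52 on the log2 scale (standard error 0.048, adjusted p = 1.75e-07). CTP is made from UTP by the paralogs Ctps (chr4:120539868-120570276, minus strand) and Ctps2 (chrX:162901238-163032508, plus strand). Ctps was at 101 to 136 CPM (median 119) in the Control gRNA libraries and 62.5 to 87.8 CPM (median 78.2) in the Tardbp gRNA libraries, without overlap, and fell by 0.65 on the log2 scale (standard error 0.071, adjusted p = 9.2e-07). Ctps2 was at 79.1 to 104 CPM (median 90.1) in the Control gRNA libraries and 85.8 to 105 CPM (median 96.7) in the Tardbp gRNA libraries. Those ranges overlapped, and the log2 fold change of Ctps2 was 0.10 (standard error 0.057, adjusted p = 0.171). It was called higher with upper-quartile scaling, at a log2 fold change of 0.17, and on the libraries numbered 4 to 8 alone, at 0.15, and its sign turned on those numbered 1 to 3 alone, at -0.033, and with the RNA concentration as a covariate, at -0.12.

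**Figure D2:**
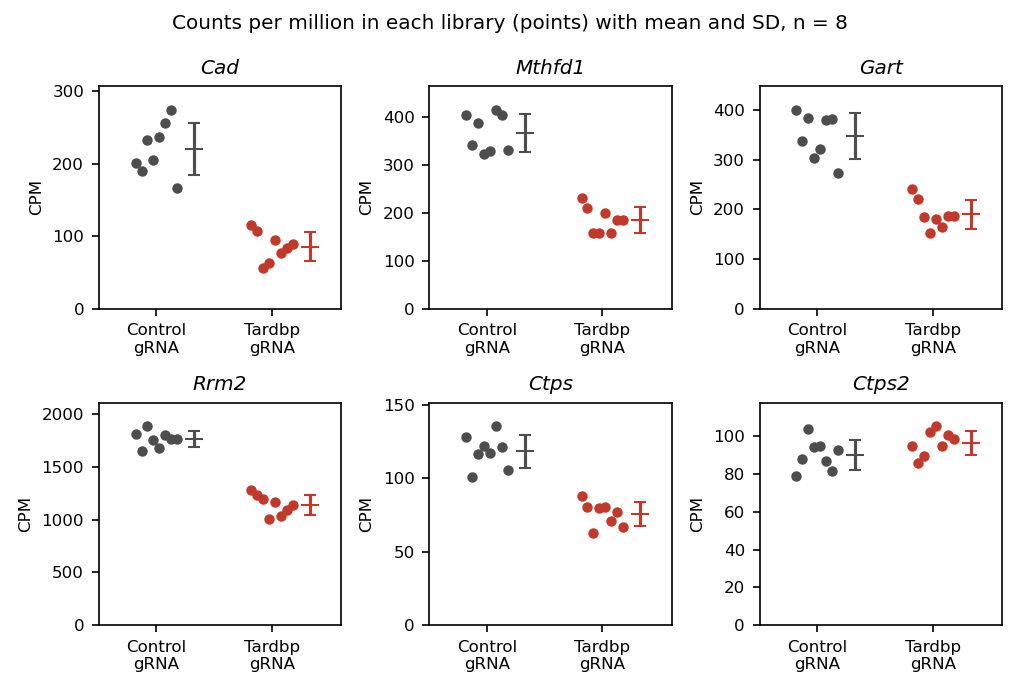
Each panel plots the CPM of a gene in the 8 Control gRNA libraries (grey) and the 8 Tardbp gRNA libraries (red), with the mean and SD beside the points. The points of Cad, Mthfd1, Gart, Rrm2 and Ctps do not overlap between the groups, while those of Ctps2 do.

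The bases before the starts of Cad, Ctps and Ctps2 are shown because these genes gave the largest fall and the unequal pair of paralogs. Each is 250 bases long and ends just before a RefSeq start of the gene on GRCm38.p6, read along the gene, and capitals mark a match to the NRF1 motif that ends before the start of Ctps. In the windows shown Ctps held 20 CG pairs, Cad 17 and Ctps2 5, while the window of the other start of Ctps had 16 and those of Ctps2 4 and 10. Ctps2 has 3 RefSeq starts and Ctps 2, and those shown are the first along the gene for Ctps and the second for Ctps2, with the other windows of both genes free of capitals.
Cad (chr5:31054530-31054779, plus strand): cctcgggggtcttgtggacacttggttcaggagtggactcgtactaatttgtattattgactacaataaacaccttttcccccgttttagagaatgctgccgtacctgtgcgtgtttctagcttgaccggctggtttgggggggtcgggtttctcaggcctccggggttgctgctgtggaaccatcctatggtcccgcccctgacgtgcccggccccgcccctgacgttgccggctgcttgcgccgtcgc
Ctps (chr4:120570277-120570526, minus strand): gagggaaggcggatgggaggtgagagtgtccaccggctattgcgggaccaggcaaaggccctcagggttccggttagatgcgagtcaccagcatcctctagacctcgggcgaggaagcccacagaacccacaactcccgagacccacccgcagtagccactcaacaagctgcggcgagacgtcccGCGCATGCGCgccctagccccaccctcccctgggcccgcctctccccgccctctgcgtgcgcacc
Ctps2 (chrX:162901345-162901594, plus strand): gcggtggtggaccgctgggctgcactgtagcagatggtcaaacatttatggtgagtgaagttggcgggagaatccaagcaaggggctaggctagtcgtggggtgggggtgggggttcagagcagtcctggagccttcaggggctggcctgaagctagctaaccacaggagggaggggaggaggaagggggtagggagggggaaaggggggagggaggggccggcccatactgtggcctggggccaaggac

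The 6 genes of deoxynucleotide supply were all called lower, with a median of -0.43 on the log2 scale. Rrm1, the large subunit of ribonucleotide reductase (chr7:102441695-102469771, plus strand), ranged over 1001 to 1198 CPM (median 1052) in the Control gRNA libraries and 566 to 744 CPM (median 651) in the Tardbp gRNA libraries. It fell by 0.72 on the log2 scale (standard error 0.057, adjusted p = 4.44e-08). Rrm2, the small subunit and the most abundant member of the module, was at 1649 to 1887 CPM (median 1767) in the Control gRNA libraries and 1006 to 1278 CPM (median 1154) in the Tardbp gRNA libraries. Rrm2 fell by 0.63 on the log2 scale (standard error 0.047, adjusted p = 3.35e-08). Both subunits thus separated the groups completely. Dck, the kinase that salvages deoxycytidine, was at 205 to 255 CPM (median 231) in the Control gRNA libraries and 140.5 to 186 CPM (median 162) in the Tardbp gRNA libraries, and fell by 0.51 on the log2 scale (standard error 0.054, adjusted p = 6.21e-07). Tk1, the cytosolic thymidine kinase, was at 227 to 257 CPM (median 238) in the Control gRNA libraries and 175 to 219 CPM (median 186) in the Tardbp gRNA libraries. Tk1 fell by 0.34 on the log2 scale (standard error 0.047, adjusted p = 8.76e-06). Tyms, which makes thymidylate at the expense of folate-bound carbon, was at 339 to 377 CPM (median 357) in the Control gRNA libraries and 281 to 314 CPM (median 293) in the Tardbp gRNA libraries. Tyms fell by 0.29 on the log2 scale (standard error 0.033, adjusted p = 1.47e-06). Dut, which clears dUTP, had overlapping ranges of 412 to 516 CPM (median 455) in the Control gRNA libraries and 367 to 419 CPM (median 394) in the Tardbp gRNA libraries, and fell by 0.20 on the log2 scale (standard error 0.048, adjusted p = 0.00244).

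Purine salvage had the smallest median among the 7 roles, -0.18 on the log2 scale, with both genes called lower. Aprt, which recovers adenine (chr8:122574635-122576909, minus strand), ranged over 124 to 181 CPM (median 158) in the Control gRNA libraries and 129 to 144 CPM (median 131) in the Tardbp gRNA libraries. Its ranges overlapped, and it fell by 0.20 on the log2 scale (standard error 0.061, adjusted p = 0.0139). Hprt, which recovers hypoxanthine and guanine, was at 383 to 467 CPM (median 424) in the Control gRNA libraries and 359 to 404 CPM (median 379.9) in the Tardbp gRNA libraries, also with overlap, and fell by 0.16 on the log2 scale (standard error 0.040, adjusted p = 0.00331). The calls of Dut, Hprt and Aprt were lost with upper-quartile scaling, at adjusted p of 0.0565, 0.119 and 0.122, and that of Aprt also on the libraries numbered 4 to 8 alone, at 0.0750. Dut, Hprt and Aprt also lost their calls with the RNA concentration in the fit and on the libraries numbered 1 to 3. With the RNA concentration their log2 fold changes were -0.19, -0.16 and -0.18 (adjusted p = 0.242, 0.226 and 0.390). On the libraries numbered 1 to 3 they were -0.20, -0.19 and -0.25 (adjusted p = 0.227, 0.199 and 0.152). Tyms and Tk1 were both at -0.28 on those libraries (adjusted p = 0.0554 and 0.0718).

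**Figure D3:**
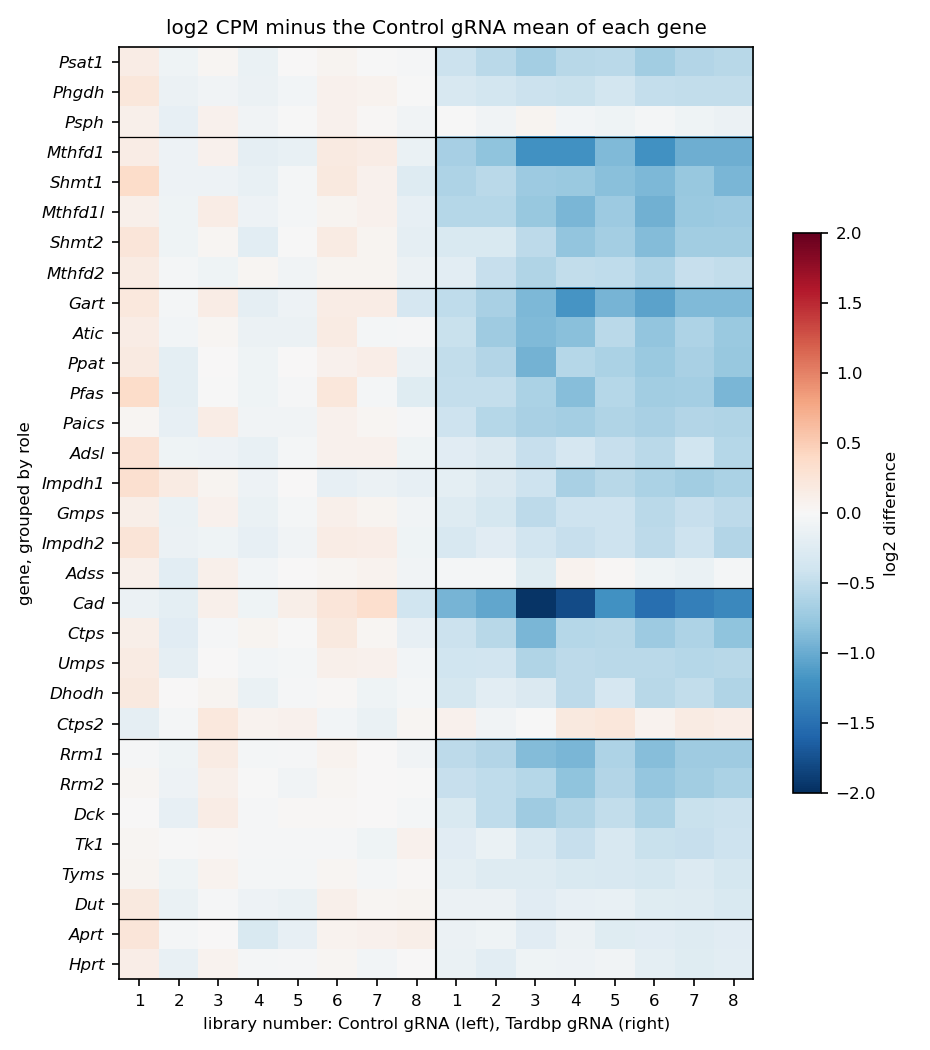
Rows are the 31 genes grouped by role, columns the 16 libraries, and the color gives log2 CPM minus the mean of the Control gRNA libraries for that gene, from -2 (blue) to 2 (red). The 8 Tardbp gRNA columns on the right are blue in all rows but Psph, Adss and Ctps2, and palest in the rows of Dut, Aprt and Hprt.

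Within pairs of paralogs or of enzymes working in different compartments, the log2 ratio differed between the groups in 4 of the 5 pairs compared. Ratios within a library do not depend on its scaling, and the pairs were chosen after the values were known. The p-values below therefore restate differences already seen in the single genes. How often other pairs of genes differ by as much was not computed. The ratio of Ctps to Ctps2 went from 0.39 ± 0.21 in Control gRNA libraries to -0.35 ± 0.17 in Tardbp gRNA libraries (mean ± SD of log2 ratios, n = 8 each). The ranges did not overlap (difference -0.75, exact permutation p = 0.000155, adjusted p = 0.000389), and the value of p is the smallest that 8 against 8 libraries allow. The ratio of cytosolic Mthfd1 to mitochondrial Mthfd2 went from 0.73 ± 0.13 in Control gRNA libraries to 0.22 ± 0.13 in Tardbp gRNA libraries (mean ± SD of log2 ratios, n = 8 each), again without overlap (difference -0.51, exact permutation p = 0.000155, adjusted p = 0.000389). That of Mthfd1 to mitochondrial Mthfd1l went from 1.26 ± 0.083 in Control gRNA libraries to 1.01 ± 0.11 in Tardbp gRNA libraries (mean ± SD of log2 ratios, n = 8 each), with overlap (difference -0.24, exact permutation p = 0.000311, adjusted p = 0.000518). Cytosolic Shmt1 relative to mitochondrial Shmt2 went from -1.15 ± 0.081 in Control gRNA libraries to -1.29 ± 0.11 in Tardbp gRNA libraries (mean ± SD of log2 ratios, n = 8 each), with overlap (difference -0.14, exact permutation p = 0.0126, adjusted p = 0.0157). On the libraries numbered 4 to 8 alone this last difference was -0.089 (exact permutation p = 0.135). The ratio of Impdh1 to Impdh2 went from -1.20 ± 0.20 in Control gRNA libraries to -1.30 ± 0.12 in Tardbp gRNA libraries (mean ± SD of log2 ratios, n = 8 each), a difference that did not pass (difference -0.091, exact permutation p = 0.284, adjusted p = 0.284). For Ctps and Ctps2 the difference was -0.84 on the libraries numbered 4 to 8 (exact permutation p = 0.00794) and -0.59 on those numbered 1 to 3 (exact permutation p = 0.10, the smallest that 3 against 3 allow).

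Levels can be compared between genes only per transcript length, and were put on the TPM scale, the counts divided by length and scaled to a common total, from the counts and annotated lengths of the transcripts. In Control gRNA, Rrm2 was the most abundant at a median of 1328 TPM, above every value of Hprt, which came next at 539 TPM. Hprt, Dut (510.5 TPM), Phgdh (485 TPM), Rrm1 (432 TPM) and Paics (405 TPM) overlapped each with the next in order. Paics was above every value of Aprt at 322 TPM, and from Aprt down to Ctps2 each neighbour overlapped the next over the 8 libraries. At the lower end lay Cad (51.7 TPM), Dhodh (49.0 TPM) and Ctps2 (46.3 TPM), and Pfas was below all others at 9.79 TPM. In Tardbp gRNA, Rrm2 was at a median of 839 TPM, Hprt at 465 TPM and Cad at 19.5 TPM, while Ctps2 was at 47.5 TPM.

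**Figure D4:**
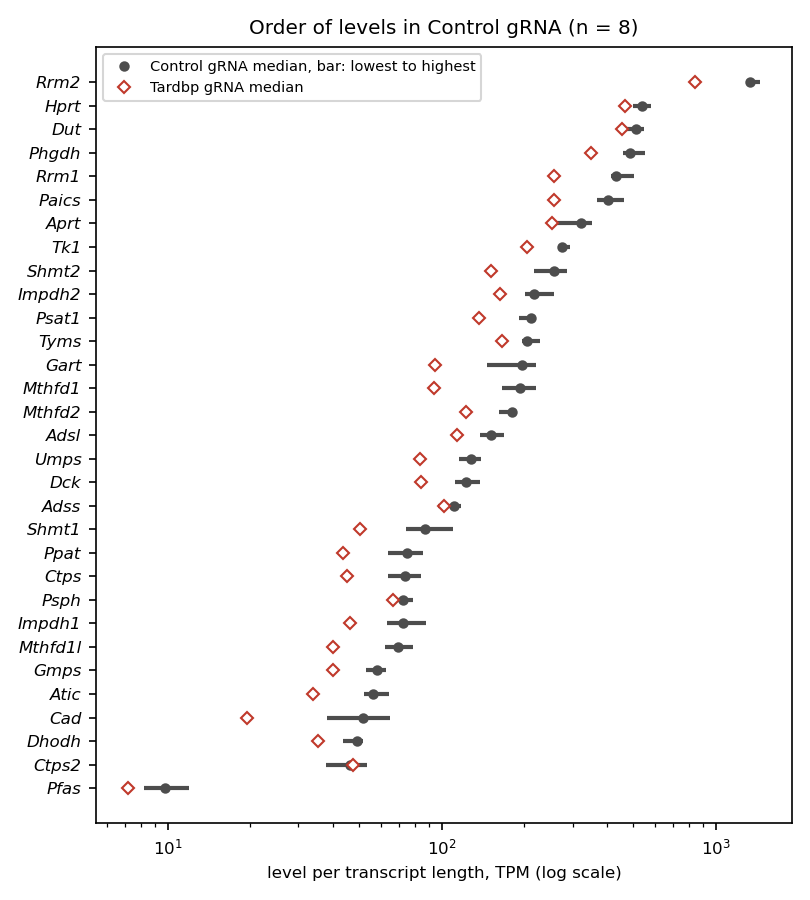
The horizontal axis gives the level per transcript length in TPM on a log scale, with grey points and bars for the median and the range of the 8 Control gRNA libraries and red diamonds for the median of the 8 Tardbp gRNA libraries. Rrm2 stands apart at the top at 1328 TPM and Pfas at the bottom at 9.79 TPM, and the diamond of Ctps2 is the single one to the right of its grey point.

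In the transcripts of the module, lower calls outnumbered higher ones. Of 116 member transcripts tested, out of 210 annotated, 35 were called lower and 6 higher, where 8.14% of all transcripts tested were called lower, 8.50% higher and 16.6% in either direction, and 29 of the 31 genes had at least 1 called transcript. In 17 genes a single transcript held over 90% of the counts in both groups. Among the called genes, the largest transcript by share was not itself called in Gart and Tyms. The 2 main forms of Gart, Gart-209 and Gart-201, had log2 fold changes of -0.74, adjusted p = 0.115, and -1.08, adjusted p = 0.0828, while the minor forms Gart-204 and Gart-210 were called lower. Tyms-206 had a log2 fold change of -0.21, adjusted p = 0.0659. The 6 that were called higher belonged to Mthfd2, Pfas and Psph, and were minor forms. Among them, the retained-intron transcript Pfas-202 ranged over 0 to 0.530 CPM (median 0.220) in Control gRNA libraries and 0.239 to 6.25 CPM (median 1.08) in Tardbp gRNA (log2 fold change 2.68, adjusted p = 0.0255). Pfas-206, also with a retained intron, ranged over 0.169 to 0.647 CPM (median 0.310) in Control gRNA libraries and 0.213 to 1.57 CPM (median 0.818) in Tardbp gRNA (log2 fold change 1.25, adjusted p = 0.0406). The coding transcript Pfas-201 ranged over 31.4 to 50.5 CPM (median 35.8) in Control gRNA libraries and 13.0 to 24.9 CPM (median 18.8) in Tardbp gRNA, and had a log2 fold change of -1.01, adjusted p = 8.09e-05. These transcripts were picked out after their values were seen. Of Mthfd2, the retained-intron form Mthfd2-205 had a median of 0.313 CPM in Control gRNA and 0.667 CPM in Tardbp gRNA, and of Psph, the retained-intron form Psph-205 had 1.14 and 1.97 CPM. Also called higher were Mthfd2-207 (log2 fold change 0.62, adjusted p = 0.0363) and Psph-204 (log2 fold change 0.61, adjusted p = 0.0324), both annotated as protein coding. Other retained-intron forms of the module, such as Rrm2-202, Tk1-207 and Shmt2-202, were not called.

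No change in the use of transcripts within a gene was called by the rule applied. Of 113 member transcripts in 28 genes whose share of the gene's counts was tested with limma, 0 passed both an adjusted p of 0.05 and a mean difference of 0.1, where 0.63% of all transcript shares tested were called. With so low a share over all transcripts, 0 of 113 does not set the module apart. Some shares also varied widely, such as Gart-201 at 0.417 ± 0.20 in Control gRNA, so a difference over 0.1 could be missed. At an unadjusted p under 0.05 there were 22, and 7 had an adjusted p under 0.05 with a smaller difference, with no share over all transcripts computed at these cutoffs. The largest of these 7 was Gart-204, with a share of 0.0871 ± 0.027 in Control gRNA libraries and 0.0359 ± 0.013 in Tardbp gRNA (mean ± SD, n = 8 each) and a limma adjusted p of 0.0105. Atic-201 had shares of 0.954 ± 0.0085 in Control gRNA libraries and 0.923 ± 0.0056 in Tardbp gRNA (mean ± SD, n = 8 each), with a limma adjusted p of 0.000194. Transcript counts of one gene are estimates that split shared reads, and their error is larger than that of the gene.

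Splicing values were read for the same genes. Whippet's Psi, the fraction of a gene's transcripts that include a node such as an exon or a start, was deposited as 1 value per group, so that no replicate error can be given. Of 440 nodes in the 31 genes, 2 differed by more than 0.1 between the groups, or 0.455%, where 4.70% of all nodes did. Of the 60 member nodes that lay between 0.05 and 0.95 in at least 1 group, the same 2 were 3.33%, beside 11.7% of all such nodes, and at a difference over 0.2 they were again 3.33%, beside 4.16%. Both were neighbouring start nodes of Impdh1 on the minus strand of chromosome 6. The outer node, chr6:29212250-29212297, went from 0.667 in Control gRNA to 0.398 in Tardbp gRNA, and the inner node, chr6:29212171-29212249, from 0.334 to 0.603. Next in size was another start node of Impdh1, chr6:29216343-29216364, which went from 0.728 to 0.818. Core exons of Pfas followed, of which chr11:68988367-68988690 went from 0.959 to 0.888, and chr11:68997913-68998044 from 0.965 to 0.898. In the transcript counts, Impdh1-201 held a share of 0.718 ± 0.14 in Control gRNA libraries and 0.588 ± 0.09 in Tardbp gRNA (mean ± SD, n = 8 each), and its difference did not pass (limma adjusted p = 0.263).

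Other genes of the same pathways moved less uniformly. Of 79 listed enzymes, carriers and regulators, 72 passed the filter, 34 were called lower, 9 higher and 29 were not called, with a median log2 fold change of -0.19. The 4 called genes with the largest falls were Ak4, Gldc, Slc1a4 and Asns, the last pair from the list of serine and aspartate supply. Ak4, a mitochondrial nucleotide kinase, was at 0.362 to 3.13 CPM (median 1.503) in the Control gRNA libraries and 0 to 0.594 CPM (median 0.334) in the Tardbp gRNA libraries (log2 fold change -2.26, standard error 0.58, adjusted p = 0.00345). Gldc, of the glycine cleavage system, was at 1.89 to 10.2 CPM (median 5.07) in the Control gRNA libraries and 0.842 to 1.46 CPM (median 1.22) in the Tardbp gRNA libraries (log2 fold change -2.19, standard error 0.28, adjusted p = 4.4e-06). Slc1a4, a carrier of neutral amino acids including serine, was at 2.20 to 4.31 CPM (median 2.65) in the Control gRNA libraries and 0.646 to 1.80 CPM (median 1.21) in the Tardbp gRNA libraries (log2 fold change -1.32, standard error 0.20, adjusted p = 3.42e-05). Asns, asparagine synthetase, was at 25.0 to 63.9 CPM (median 38.6) in the Control gRNA libraries and 14.8 to 29.6 CPM (median 20.1) in the Tardbp gRNA libraries (log2 fold change -0.88, standard error 0.17, adjusted p = 0.000294). The ranges of Gldc and Slc1a4 did not overlap, and those of Ak4 and Asns did.

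The folate and methionine genes around the module included 9 called lower and 2 higher of 15 tested, and the carriers and suppliers of serine and aspartate 7 lower and 0 higher of 8. The PRPP synthetases and related genes, which provide the sugar phosphate of all nucleotides, gave 4 lower and 0 higher of 6. The other purine enzymes gave 5 lower and 1 higher of 15, glycine cleavage 3 lower and 0 higher of 4, and the other pyrimidine enzymes 2 lower and 1 higher of 7. Over all genes tested, 23.3% were lower, 23.5% higher and 46.7% called in either direction, so that the 6 calls of 15 among the other purine enzymes and the 3 of 7 among the pyrimidine enzymes were near the background.

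Of the other deoxynucleotide enzymes, 3 were called lower and 5 higher of 12 tested. Over all genes tested, 23.3% were called lower, 23.5% higher and 46.7% in either direction. The 3 lower calls, 25% of the 12, were thus near the background. The 5 that rose were Tk2, Dguok, Samhd1, Nt5c and Nt5m, of which Dguok, Nt5c and Nt5m were named after their values were seen. The 3 that fell, also named after their values were seen, were Dctd, Dctpp1 and Dtymk. Dctd (log2 fold change -0.61, standard error 0.10, adjusted p = 9.7e-05) and Dctpp1 (-0.36, standard error 0.067, adjusted p = 0.000231) did not overlap between the groups. Dtymk did (log2 fold change -0.14, standard error 0.038, adjusted p = 0.00634). Tk2, the mitochondrial thymidine kinase, was at 13.1 to 23.8 CPM (median 18.8) in the Control gRNA libraries and 27.8 to 32.8 CPM (median 29.0) in the Tardbp gRNA libraries, without overlap (log2 fold change 0.64, standard error 0.095, adjusted p = 2.35e-05). Dguok, the mitochondrial deoxyguanosine kinase, was at 44.2 to 50.7 CPM (median 48.5) in the Control gRNA libraries and 58.3 to 75.4 CPM (median 69.5) in the Tardbp gRNA libraries. The ranges of Dguok did not overlap (log2 fold change 0.53, standard error 0.054, adjusted p = 4.55e-07). Samhd1, which breaks down deoxynucleoside triphosphates, was at 149.6 to 223 CPM (median 176) in the Control gRNA libraries and 199.6 to 363 CPM (median 268) in the Tardbp gRNA libraries, with overlap (log2 fold change 0.60, standard error 0.11, adjusted p = 0.000251). Nt5c and Nt5m, nucleotidases that act on deoxynucleotides in the cytosol and the mitochondria, had log2 fold changes of 0.44 (standard error 0.055, adjusted p = 3.64e-06) and 0.23 (standard error 0.092, adjusted p = 0.0477). Of pyrimidine salvage, Uckl1 was at 29.5 to 47.0 CPM (median 38.3) in the Control gRNA libraries and 49.5 to 66.6 CPM (median 54.7) in the Tardbp gRNA libraries, without overlap (log2 fold change 0.54, standard error 0.087, adjusted p = 5.85e-05). Ampd3, an AMP deaminase of very low level, was at 0.0389 to 0.536 CPM (median 0.299) in the Control gRNA libraries and 0.284 to 0.899 CPM (median 0.606) in the Tardbp gRNA libraries (log2 fold change 0.94, standard error 0.37, adjusted p = 0.0462), and lost its call when any of 13 of the 16 libraries was left out. With the RNA concentration in the fit, the calls of Ak4, Slc1a4, Asns, Tk2, Samhd1, Uckl1 and Ampd3 were lost, and on the libraries numbered 1 to 3 those of Ak4, Samhd1, Uckl1 and Ampd3. Dguok, Nt5c, Nt5m, Dctd, Dctpp1 and Dtymk were not followed under these settings.

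Regulators known for these pathways were also read. Myc, which is known to activate many nucleotide synthesis genes, was at 94.5 to 129.7 CPM (median 115) in the Control gRNA libraries and 77.6 to 100 CPM (median 91.1) in the Tardbp gRNA libraries, with overlap (log2 fold change -0.33, standard error 0.066, adjusted p = 0.000411). Myc lost its call in the fit with the RNA concentration, at a log2 fold change of -0.054, and on the libraries numbered 1 to 3, at -0.32. Atf4, known to activate serine and folate cycle genes, was at 118 to 130.1 CPM (median 123) in the Control gRNA libraries and 108 to 130.3 CPM (median 113) in the Tardbp gRNA libraries, and did not pass (log2 fold change -0.089, standard error 0.045, adjusted p = 0.114). Without Tardbp gRNA library 5, 6 or 8, Atf4 was called lower, with log2 fold changes of -0.13, -0.13 and -0.14. Whether either factor had a part in the falls of the module was not tested.

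**Figure D5:**
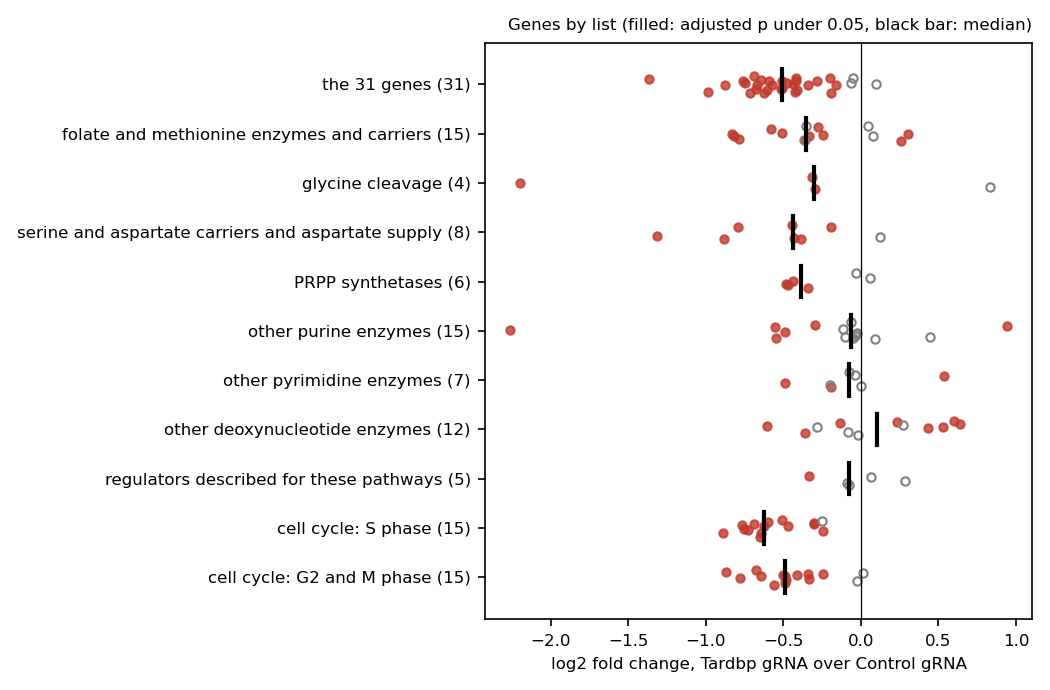
The horizontal axis gives log2 fold changes in Tardbp gRNA over Control gRNA (n = 8 each), 1 point per gene, for the 31 genes and for the lists of related and cell cycle genes, with the number tested in parentheses and a black bar at the median. The bar stands at -0.51 for the 31 genes, at -0.63 for the S phase genes and at -0.49 for the G2 and M phase genes, and the other deoxynucleotide enzymes have called genes on both sides of 0.

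Cell cycle genes were lower as well. Of 30 genes of S phase or of G2 and M phase, none of them in the module, 27 were called lower and 0 higher, with a median log2 fold change of -0.51. The shares over all genes tested were 23.3% lower, 23.5% higher and 46.7% in either direction. Pola1, the catalytic subunit of DNA polymerase alpha, was at 93.8 to 125 CPM (median 99.0) in the Control gRNA libraries and 44.8 to 62.7 CPM (median 57.5) in the Tardbp gRNA libraries, without overlap (log2 fold change -0.89, standard error 0.075, adjusted p = 7.4e-08), the largest change among the 15 S phase genes. Bub1, a kinase of the spindle checkpoint, was at 141 to 185 CPM (median 164) in the Control gRNA libraries and 57.8 to 111 CPM (median 89.9) in the Tardbp gRNA libraries (log2 fold change -0.87, standard error 0.098, adjusted p = 1.13e-06), the largest among the 15 genes of G2 and M phase. Ccne1, Ccnb2 and Birc5 were not called, with log2 fold changes of -0.25, -0.026 and 0.011. The part of cycling cells in the falls of the module was not tested.

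Promoter windows from 250 bases before to 50 after a start were found in RefSeq (GRCm38.p6) for 29 of the 31 genes. Of the letters searched on both strands, CACGTG, the core that Myc family factors bind, was in 4 of the 29 genes (13.8%) and in 8.09% of all 27025 genes with a window. The E2F letters TTTCCCGC were in 1 of 29 (3.45%), and in 1.24% of all genes, and TTTGGCGC in 0 of 29 and 0.585%. TGATGNAA, letters given for ATF4 response sites, was in 0 of 29 and in 4.51% of all genes. The NRF1 motif was in 2 of 29 (6.90%) and in 1.07% of all genes. The searched letters do not overlap in these windows, and a match is a string of letters and not a measured site. The stretches of 30 bases that hold a match are given to show where the members carry it, with the matched letters in capitals, which read in reverse complement for Ppat. The matches begin 7 to 211 bases before the start.
Atic (chr1:71557137-71557166, plus strand): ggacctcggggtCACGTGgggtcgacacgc
Ctps (chr4:120570322-120570351, minus strand): gagacgtcccGCGCATGCGCgccctagccc
Impdh2 (chr9:108560314-108560343, plus strand): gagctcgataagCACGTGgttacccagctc
Paics (chr5:76951087-76951116, plus strand): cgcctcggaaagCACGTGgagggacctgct
Ppat (chr5:76951771-76951800, minus strand): gagcagaccgcGCGGGAAAaaagggcagtg
Ppat (chr5:76951718-76951747, minus strand): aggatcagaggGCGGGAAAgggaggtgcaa
Shmt2 (chr10:127522444-127522473, minus strand): acccagtactGCGCATGCGCagggaacgcc
Tyms (chr5:30073669-30073698, minus strand): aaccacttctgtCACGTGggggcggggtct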

How the data were processed

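RNA of sorted CD8+ T cells (SMART-Seq v4, Nextera XT, pairs of 100-base reads) gave 16 libraries, 8 per group, grouped and numbered by the labels. The authors aligned reads with HISAT2 2.1.0 to mm10 and deposited StringTie 2.1.0 estimated counts per gene and transcript, which were whole numbers and not normalized. The deposited read counts and RNA concentrations are those of the sequencing facility. The authors deposited Whippet's Psi as a fraction, 1 value per group. Which Psi column is which group was taken from the study's text. The deposited probabilities and differences of Psi were not used, nor were 10 columns of each count table. Lines that name no gene (0.0836 to 0.132% of counts) were left out.

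The test of genes was that of edgeR 4.0.16 in R 4.3.3 (quasi-likelihood test, TMM, filterByExpr with minimum count 10, minimum total 15 and proportion 0.7), two-sided, with a call where the p adjusted by Benjamini-Hochberg over all 16650 genes was under 0.05. Transcripts were tested likewise, and transcript shares with limma 3.58.1. Log2 CPM used a prior count of 2. Ratios of paralogs were compared by an exact two-sided permutation test (SciPy 1.17.1) with adjustment over 5 pairs. Code was tested on simulated data. DESeq2 1.42.0, other scalings, covariates, thresholds and left-out libraries were tried as alternatives. One of them divides the libraries into numbers 1 to 3 and 4 to 8, a division that earlier work had seen in these data and no label names. Estimated counts come from PCR-amplified reads without molecular identifiers, so a count is not a molecule.

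The module, the lists and the tests were chosen with earlier results of these data known. Full values are given for Tardbp, for the called gene with the largest change in each role, and for every other called gene without overlap between groups. Of the related list, the 4 highest and 4 lowest called genes are named with Myc and Atf4, and of the cell cycle list the called gene with the largest change in each phase. Genes, names and coordinates are those of GENCODE M21 (GRCm38, the assembly of mm10), and 19 of the 31 genes are overlapped by another gene. Of the 100-base windows of their main transcripts, 37.3% of Phgdh and 21.6% of Psph also occur in other genes, so these values are uncertain. Nothing in the labels ties each library to a separate mouse, though the study's text speaks of 8 individual recipients. The p-values measure the spread between these libraries. Some genes of these lists are counted but not reported by name here. No pair of libraries in a group agreed within sampling noise.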

Additional observations from a re-analysis of the deposited data

Results flagged for a closer look

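In 64 groups of 8 libraries (the CPM of the 31 genes and of Tardbp in each group), the highest or lowest library stood apart from the rest by Dixon's criterion, which sets its gap to the next against the group's range, in 3, where 1 in 20 groups, or 3.2, would be flagged by chance. Tardbp gRNA library 1 was the highest of its group for Mthfd2, at 190.3 CPM with the next at 160.0 CPM, and for Paics, at 439 CPM with the next at 395 CPM. Without that library, the log2 fold changes were -0.55 for Mthfd2 and -0.65 for Paics, both still called. Tardbp gRNA library 3 was the lowest of its group for Tardbp itself, at 110.4 CPM with the next at 129.8 CPM, and the log2 fold change of Tardbp without it was -0.47.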

How the results depend on the processing

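The 28 calls of the module, all lower, remained the same genes with DESeq2, with median-ratio (RLE) factors, without the low-count filter, with the letter M or F or the division of the numbers as a covariate, and in each of the 16 fits that left out 1 library. Over those 16 fits the median log2 fold change of the module was -0.57 to -0.50, the related genes called 41 to 45, the cell cycle genes called 27 to 28, and Tardbp -0.55 to -0.47. Same-numbered libraries did not deviate together (correlations of -0.0048 to 0.16, 2 of 8 over 0.1), and 2 of 8 Control gRNA libraries correlated best with their own number. A fit with the replicate block called the same 28 genes, 33 member transcripts against 41, and 42 related genes, with a median of -0.51. With upper-quartile scaling 25 of the 28 calls were kept and 1 gene was called higher, Psph was at 0.019 and Adss at 0.011. On the libraries numbered 4 to 8 alone, 27 were kept and 1 gene was higher. On those numbered 1 to 3 alone, 20 were kept, 17 related genes were called and Ctps2 was at -0.033, with fewer libraries. With the log2 of the RNA concentration in the fit, which does not overlap between the groups, 19 were kept, 17 related genes were called, Psph was at 0.0097 and Ctps2 at -0.12, and the cause was not tested. Asking for a log2 fold change over 0.5 in size left 17 called genes of the module, 17 of them lower, 18 related genes and 16 cell cycle genes, by construction. With a share difference over 0.05, 1 member transcript share was called. The division of the numbers was applied to the paralog ratios after seeing the data. Near the filter, few counts limit the low genes Ampd3, Ak4 and Slc1a4, and Psi values carry no replicate error.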

Other observations

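A letter M or F was deposited for each library under the heading sex, 3 M and 5 F in Control gRNA and 5 M and 3 F in Tardbp gRNA. The difference between the groups did not depend detectably on the letter. In edgeR's test of the interaction of group and letter, 0 of 16650 genes had an adjusted p under 0.05 and 0 of the 31 genes an unadjusted p under 0.05. The Y-linked genes and Xist had CPM above 0 in all 16 libraries, whatever the letter. Y-linked Ddx3y was at 28.52 to 38.99 CPM in the F libraries and 18.25 to 36.12 CPM in the M libraries. Xist was at 12.29 to 41.93 CPM in F and 9.82 to 69 CPM in M. The letter thus did not separate the libraries by these genes, and the interaction test is not one of the sex of the sequenced cells.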
